A study of Drosophila melanogaster with 12 samples.

Results

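The oxidative phosphorylation genes described here are the 74 genes whose symbols begin with ND-, COX, ATPsyn, UQCR or Sdh, together with ox, out of 11982 genes measured one probe set each. The rule uses only the symbols in the platform annotation. By their names, 32 belong to complex I, 7 to complex II, 7 to complex III, 14 to complex IV and 14 to complex V. They comprise 52 subunit genes, 21 second copies whose symbol is that of a subunit with an L added, and 1 assembly factor, Sdhaf3. A further 3 genes, COX6B, ATPsynG and ND-AGGG, were found on probe sets shared with other genes and were left out.

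Oxidative phosphorylation is carried out in the inner mitochondrial membrane. Complex I takes electrons from NADH and complex II takes them from succinate, complex III passes them to cytochrome c, and complex IV hands them to oxygen; complexes I, III and IV pump protons, and complex V, the ATP synthase, uses the proton gradient to make ATP. Most subunits are encoded in the nucleus and a few in mitochondrial DNA, and in flies many nuclear subunits have a second copy that is known mainly from the testis.

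RNA came from eye discs of Drosophila larvae at the third instar and was hybridised to Affymetrix arrays, with 3 arrays in each of 4 groups. The double mutant group had the genotype rbf120a wtsX1Lats, the rbf120a group carried the allele of the retinoblastoma family gene Rbf alone, and the wtsX1Lats group carried the allele of the Hippo pathway kinase gene wts alone. Canton S, a wild-type strain, is the group without these alleles. The mutant discs were mosaics in which, per the series' design text, mutant cells outnumbered wild-type cells; how the mosaics were made, whether the Canton S discs went through the same crosses, and how many animals or discs made up a replicate are not given, so an allele and a strain difference cannot be told apart. The replicates are labelled biological. P-values weigh a difference of group means against the spread within groups, estimated over all 12 arrays together.

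Values are log2 signals as deposited. Array medians over all probe sets lay between 5.76 and 5.86. In wtsX1Lats replicate 3 the 3′ control probe sets exceeded the 5′ ones by 1.70 for actin, 1.81 for GAPDH and 1.90 for eIF-4A, against at most 0.82, 1.43 and 0.95 in the other arrays. Neither targeted gene passed the test in its own mutant: Rbf differed by -0.29 ± 0.26 (SE; limma, Benjamini-Hochberg adjusted p = 0.812) in rbf120a, and wts by -0.25 ± 0.22 (limma adjusted p = 0.59) in wtsX1Lats, where its arrays were at 9.08, 9.75 and 10.27, against 9.86, 10.05 and 9.95 in Canton S. The position of the alleles relative to the probes is not given in the labels, so these levels do not check the genotypes. All 13 eye disc markers looked for were measured, and their summed linear signal ran from 17427 to 19620 in the double mutant, 14583 to 18320 in rbf120a, 12173 to 20787 in wtsX1Lats and 18111 to 20040 in Canton S.

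The subunit genes gave strong signals and their second copies weak ones. Means over the 12 arrays ran from 4.20 to 13.47 for the subunits, with a median of 11.47, and 49 of 52 lay above 9.62, the 75th percentile of all genes. The exceptions were ND-B12, UQCR-11 and ND-B8, the last of which was below 5.04, the 25th percentile. The second copies ran from 4.06 to 7.21 with a median of 4.94, and 11 of 21 lay below that 25th percentile. Signal strength depends on the probes as well as on the RNA, so these positions place a signal on the scale of the array and do not rank the RNAs by amount.

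The comparison of wtsX1Lats with Canton S asks which genes differ when the wts allele alone is present. Transcripts for the subunits of all 5 complexes lay higher in wtsX1Lats discs, by a small margin that was shared by most of them: the median difference over the 52 subunits was 0.25 on the log2 scale, a ratio of 1.19, against 0.02 over all genes. The difference lay above 0 in 50 of the 52 subunits, against 54.7% of all genes. In 41 of the 52, or 78.8%, all 3 wtsX1Lats arrays lay above all 3 Canton S arrays, against 11.4% of all genes, and in 0 subunits did they lie below, against 8.6% of all genes. Single genes rarely passed the test across all genes: limma called 5 of 52 subunits higher and 0 lower at a Benjamini-Hochberg adjusted p under 0.05, and with the second copies 7 of 74 genes higher and 0 lower, against 2.28% and 3.33% of all genes and 5.61% in both directions. At an unadjusted p under 0.05, 37 subunits were higher and 0 lower, against 10.8% and 9.88% of all genes. In a bulk disc sample, a change in the share of a cell type and a change in RNA per cell cannot be told apart.

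The pattern held on each array. Subtracting the Canton S mean of each gene, the median over the subunits was 0.33, 0.20 and 0.22 on the 3 wtsX1Lats arrays, against 0.00, -0.02 and 0.01 on the Canton S arrays. All 3 wtsX1Lats arrays therefore stood above all the others, replicate 1 furthest. The subunit median difference was 0.21 without wtsX1Lats replicate 1, 0.27 without replicate 3 and 0.20 without both, and the count of subunits with groups apart was 42, 44 and 46 in the same order, beside 14.8%, 22.4% and 30.6% of all genes. Over all 12 arrays, the 3 wtsX1Lats arrays exceeded all 9 others in 28 of 52 subunits, against 2.27% of all genes, and wtsX1Lats had the highest mean of the 4 groups in 49 of 52, against 32.3% of all genes.

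**Figure D1:**
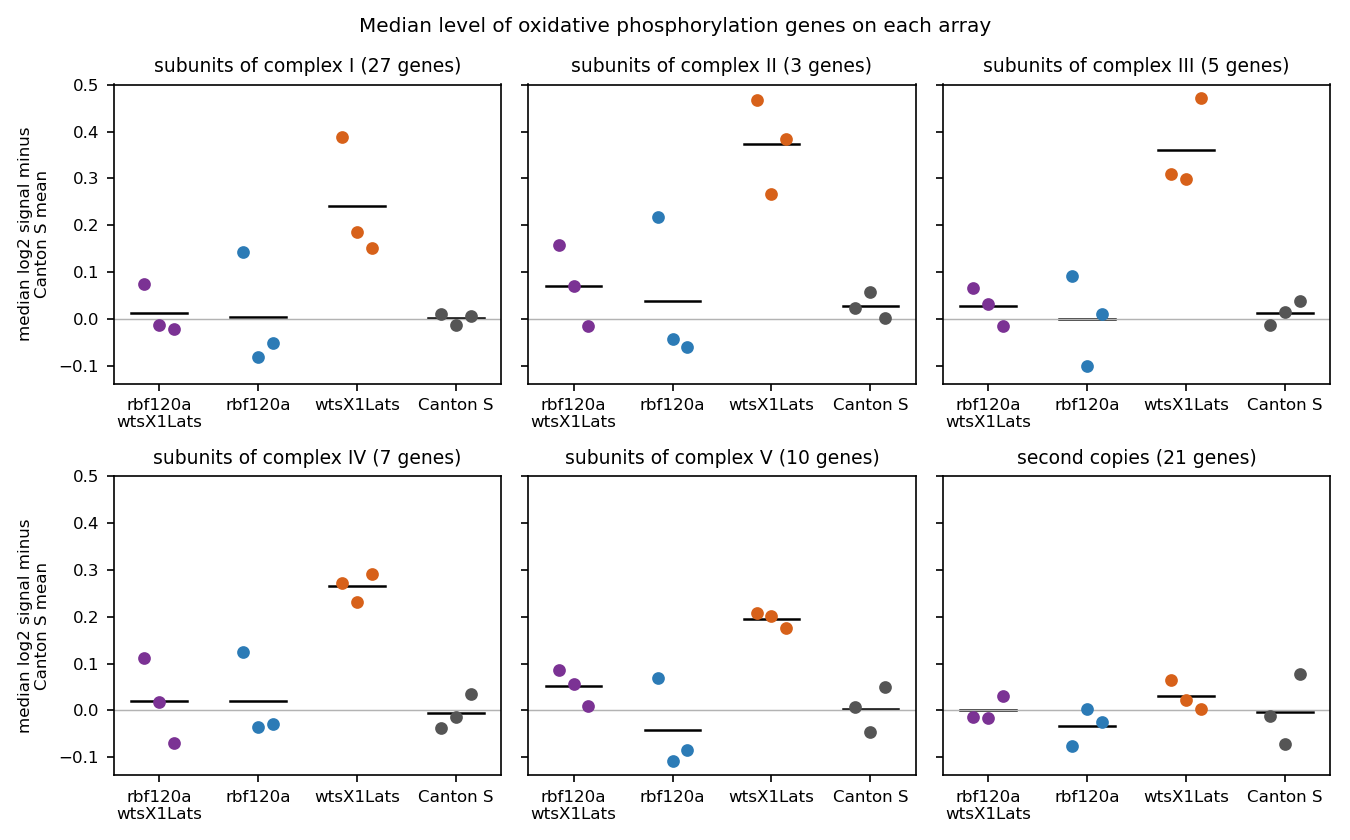
Median of log2 signal minus the Canton S mean, over the subunits of each complex and over the second copies, for each array (points) and as the mean of a group's 3 array medians (bars). In the panels for the 5 complexes all wtsX1Lats arrays lie above all Canton S arrays (for all 52 subunits, 0.33, 0.20 and 0.22 in wtsX1Lats against 0.00, -0.02 and 0.01 in Canton S), while the 21 second copies lie near 0 in all groups.

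Complex I is the entry point for NADH and has the largest number of subunits. All 27 of its subunits had a higher mean in wtsX1Lats than in Canton S, with a median difference of 0.25 and a range of 0.00 to 0.48, and groups were apart in 20 of 27. The array medians were 0.39, 0.19 and 0.15 in wtsX1Lats, against 0.01, -0.01 and 0.01 in Canton S, with wtsX1Lats replicate 1 highest. Only ND-B14.7, an accessory subunit of the membrane arm, passed the test. Its signal was 11.34, 11.09 and 11.16 in wtsX1Lats, against 10.69, 10.73 and 10.73 in Canton S. Every wtsX1Lats array lay above every Canton S array, and the difference was 0.48 ± 0.10 (SE; limma adjusted p = 0.0127; 0.0609 without Canton S replicate 1). The double mutant arrays at 10.93, 10.85 and 10.83 and the rbf120a arrays at 11.04, 10.90 and 10.80 lay between.

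ND-75, the large iron-sulphur subunit, was at 10.74, 10.29 and 10.14 in wtsX1Lats, and in Canton S between 9.93 and 10.09. The groups did not overlap, yet the difference was 0.38 ± 0.15 (limma adjusted p = 0.161), with replicate 1 the highest. ND-51, the NADH-binding flavoprotein subunit, was at 11.51, 11.22 and 10.99 in wtsX1Lats, against 11.13, 11.02 and 11.09 in Canton S, and the groups overlapped. ND-18, which had the largest difference of complex I in the double mutant, was at 11.05, 10.59 and 10.61 in wtsX1Lats, against 10.33, 10.47 and 10.34 in Canton S (0.37 ± 0.14, limma adjusted p = 0.142). ND-MNLL, a small accessory subunit, was at 11.46 in all 3 wtsX1Lats arrays, against 11.30, 11.07 and 11.35 in Canton S (0.22 ± 0.09, limma adjusted p = 0.172). The smallest differences of complex I subunits were in the dim ND-B8, at 0.00 ± 0.04, and in the accessory subunit ND-B17.2, at 0.01 ± 0.11.

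Complex II, succinate dehydrogenase, links the tricarboxylic acid cycle to the respiratory chain. Its 3 measured subunits differed by a median of 0.32, and all 3 had groups apart. SdhC, a subunit that anchors the enzyme in the membrane, was at 11.85, 11.68 and 11.75 in wtsX1Lats, against 11.38, 11.30 and 11.39 in Canton S. It rose by 0.40 ± 0.10 (limma adjusted p = 0.0319), with no overlap. The other anchor subunit, SdhD, was at 11.01, 10.88 and 11.04 in wtsX1Lats, against 10.58, 10.73 and 10.66 in Canton S, a difference of 0.32 ± 0.10 (limma adjusted p = 0.0997). SdhB, the iron-sulphur subunit, differed by 0.32 ± 0.13 (limma adjusted p = 0.175).

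Complex III had the widest margin, a median of 0.43 over 5 subunits, all 5 with groups apart. UQCR-6.4, one of its small subunits, was at 12.61, 12.46 and 12.60 in wtsX1Lats, against 12.19, 11.97 and 12.23 in Canton S, and rose by 0.43 ± 0.10 (limma adjusted p = 0.024). The small subunit encoded by ox was at 11.64, 11.74 and 11.91 in wtsX1Lats, against 11.22, 11.33 and 11.40 in Canton S, and rose by 0.44 ± 0.11 (limma adjusted p = 0.0319). In both, the lowest wtsX1Lats array was above the highest of the other 9. UQCR-11 had the largest difference, 0.53 ± 0.19 (limma adjusted p = 0.127), which did not pass; its wtsX1Lats arrays were spread, at 6.08, 6.07 and 6.76.

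Complex IV, cytochrome c oxidase, showed a median of 0.29 over 7 subunits, all 7 above 0 and 6 with groups apart. COX4, which in mammals has a part in regulating the enzyme, was at 12.77, 12.66 and 12.62 in wtsX1Lats, against 12.37, 12.38 and 12.42 in Canton S. It rose by 0.29 ± 0.07 (limma adjusted p = 0.0383), with all wtsX1Lats arrays above the others. Of the remaining subunits, COX7C had the largest difference, 0.32 ± 0.09 (limma adjusted p = 0.0564), followed by COX5A at 0.30 ± 0.08 (limma adjusted p = 0.0568), and COX8 the smallest, 0.15 ± 0.08 (limma adjusted p = 0.309).

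Complex V had the smallest median, 0.20 over 10 subunits, with 8 above 0, 7 with groups apart and 0 called. The upper part of the stalk, encoded by ATPsynO, was at 13.32, 13.17 and 13.21 in wtsX1Lats, against 12.98, 12.88 and 13.05 in Canton S (0.26 ± 0.07, limma adjusted p = 0.0541). Both subunits with a mean below that of Canton S were in this complex. ATPsynbeta, the catalytic subunit, was at 13.59, 13.71 and 12.60 in wtsX1Lats, against 13.55, 13.49 and 13.49 in Canton S, so that replicate 3 alone was low and the SD of 0.61 was the largest of any member in that group. That is the array with the wide 3′ to 5′ gap in its controls, and the part of that gap in the value was not tested. ATPsynC, the subunit of the rotor ring, was at 12.998, 13.32 and 13.13 in wtsX1Lats, against 13.29, 13.26 and 13.24 in Canton S, with overlapping groups (-0.11 ± 0.08, limma adjusted p = 0.455).

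**Figure D2:**
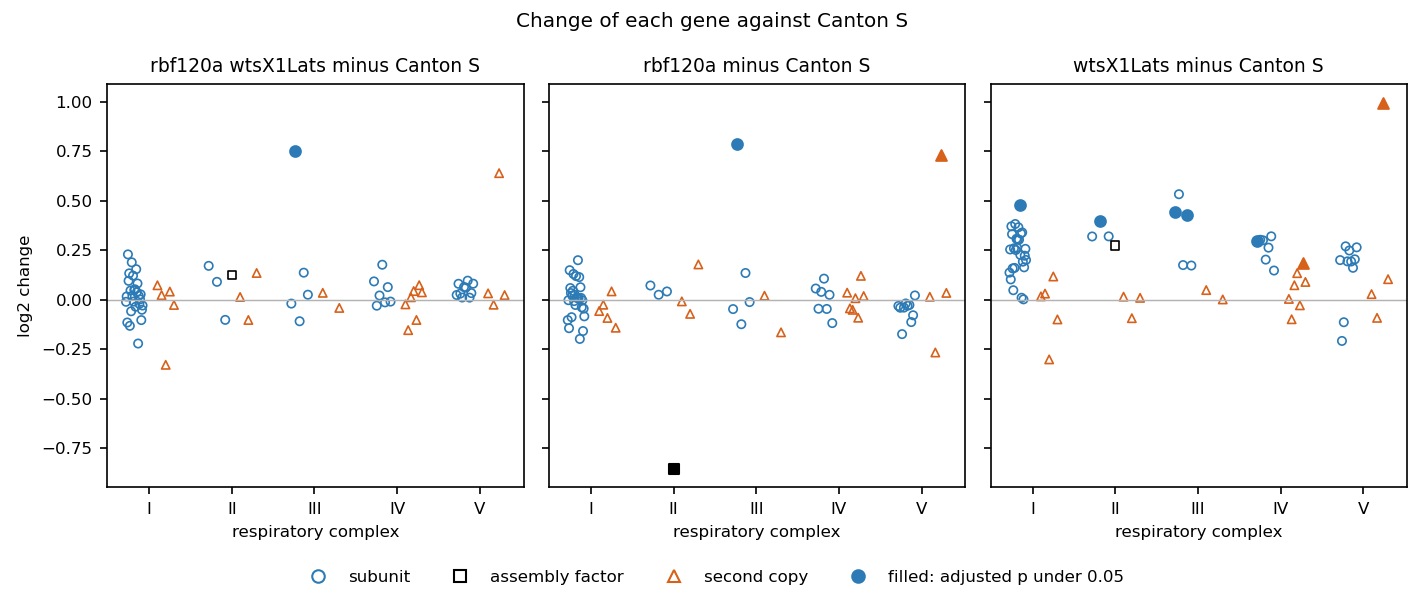
Log2 change against Canton S of each of the 74 genes, by respiratory complex, in the double mutant, rbf120a and wtsX1Lats. Circles are subunits, the square is the assembly factor Sdhaf3, triangles are second copies, and filled symbols have a limma adjusted p under 0.05; in wtsX1Lats 50 of 52 subunits lie above 0, while the triangles scatter about 0 apart from ATPsynepsilonL at 0.99.

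The second copies had the median difference of all genes, but a larger share of them lay above 0. The share called higher was also larger but rests on 2 genes, among them the dim COX7AL. Their median difference in wtsX1Lats was 0.02, as over all genes, with 15 of 21 above 0, against 54.7% of all genes. Groups were apart upward in 2 and downward in 2, or 9.52% each way, against 11.4% and 8.6% of all genes. In 0 of 21 did all wtsX1Lats arrays lie above all 9 others, against 2.27%. The share called higher was 9.52%, beside 9.62% of the subunits and 2.28% of all genes. COX4L, the copy of COX4, differed by 0.00 ± 0.07, SdhCL by 0.01 ± 0.11 and ND-B14.5AL by -0.10 ± 0.11. Their partners COX4 (0.29), SdhC (0.40) and ND-B14.5A (0.37 ± 0.12, limma adjusted p = 0.0976) all lay higher in wtsX1Lats. Not every pair parted in this way: the copy COX7AL (0.19) and its partner COX7A (0.20) both lay higher, with groups apart. Of the 21 copies, 11 had mean signals below 5.04, the limit of the filter on dim genes, among them COX4L, SdhCL and COX7AL. Whether probe sets this dim can show a difference of the size seen in the subunits was not tested. The low median of the copies therefore does not show that their RNA stayed level.

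Among the copies, 2 were called in wtsX1Lats. ATPsynepsilonL, a copy of the gene for the epsilon subunit of the ATP synthase, was at 7.94, 7.30 and 7.61 in wtsX1Lats, against 6.65, 6.57 and 6.64 in Canton S. It rose by 0.99 ± 0.18 (limma adjusted p = 0.00744), a ratio of 1.99 and the largest change of all 74 genes in this comparison, and the call held without each array in turn (limma adjusted p up to 0.0335) but not without wtsX1Lats replicates 1 and 3 together (0.143). COX7AL, at 4.43, 4.43 and 4.37 in wtsX1Lats, against 4.19, 4.28 and 4.20 in Canton S, passed with a difference of only 0.19 ± 0.04 (limma adjusted p = 0.0282; up to 0.116 without 1 array) on one of the dimmest probe sets. The lowest value was that of ND-51L1, a copy of ND-51, which was at 5.76, 5.69 and 5.51 in wtsX1Lats, against 5.93, 5.91 and 6.03 in Canton S (-0.30 ± 0.10, limma adjusted p = 0.119). Downward gaps between groups were found in ND-51L1 and ATPsynCF6L.

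Of the 7 calls in wtsX1Lats, that of ATPsynepsilonL held without each array in turn and the other 6 did not. Leaving out Canton S replicate 1 left 1 call and leaving out Canton S replicate 2 left 3. There were 4 calls without Canton S replicate 3, without wtsX1Lats replicate 1 and without double mutant replicate 2, 17 calls without wtsX1Lats replicate 3, and 0 in a fit of these 6 arrays alone. SdhC lost its call in 6 of the 12 fits that leave out 1 array (limma adjusted p up to 0.0973), ox in 7 (up to 0.136), COX4 in 10 (up to 0.137), UQCR-6.4 in 3 (up to 0.0763) and COX7AL in 4.

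**Figure D3:**
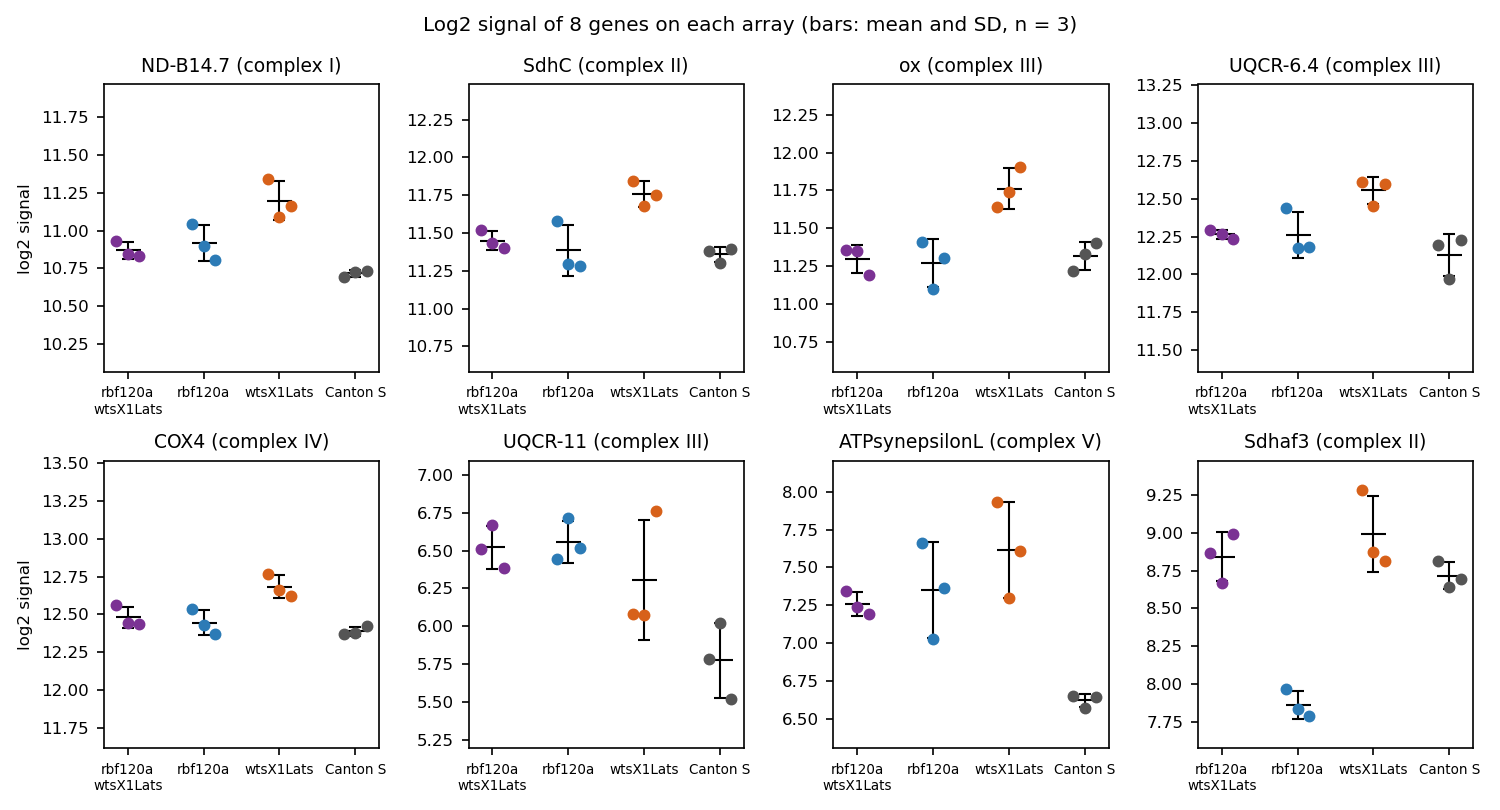
Log2 signal of 8 genes on each array (points), with group means and SDs (bars, n = 3), on axes of equal span. ND-B14.7, SdhC, ox, UQCR-6.4 and COX4 are highest in wtsX1Lats; UQCR-11 and ATPsynepsilonL are above Canton S in all mutant arrays; Sdhaf3 is at 7.97, 7.83 and 7.79 in rbf120a, below all other arrays.

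Of the genes with several probe sets, the other sets mostly gave the same difference between wtsX1Lats and Canton S. For ND-ACP, the acyl carrier subunit, the set used gave 0.25 and the others 0.27 and 0.34. For ND-B17 the values were 0.33 and 0.27, and for ATPsyngamma, the central stalk, 0.20 and 0.24. The bright sets of COX7B gave 0.26 and 0.24. The sets disagreed for COX7C, whose dim set gave -0.07 beside 0.32, and for COX7B, whose dim set gave 0.03. For ATPsynbeta the other set gave -0.05 beside -0.21.

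The comparison of the double mutant with wtsX1Lats asks how the genes differ when the rbf120a allele is added to the wts allele. Subunit transcripts were lower in the double mutant, close to the Canton S level. The median difference from wtsX1Lats was -0.22 over the 52 subunits, a ratio of 0.861, against -0.02 over all genes, and 49 of 52 lay below 0, against 55.8% of all genes. In 33 of 52 subunits, or 63.5%, all double mutant arrays lay below all wtsX1Lats arrays, against 8.88% of all genes, and in 0 above, against 5.29%. No difference passed the test: limma called 0 of the 74 genes and 0% of all 11982. At an unadjusted p under 0.05, 0 subunits were higher and 27 lower, against 4.08% and 4.54% of all genes. The wtsX1Lats arrays are shared with the comparison above, so a high value on them raises that difference and lowers this one.

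By complex, the median of the double mutant minus wtsX1Lats was -0.23 for complex I, -0.31 for complex II, -0.28 for complex III, -0.26 for complex IV and -0.16 for complex V. The numbers of subunits with the double mutant arrays all below were 14 of 27, 2 of 3, 3 of 5, 6 of 7 and 8 of 10. The difference was largest in ox, at 11.35, 11.35 and 11.19 in the double mutant, against 11.64, 11.74 and 11.91 in wtsX1Lats (-0.46 ± 0.11, limma adjusted p = 0.471). SdhD followed with 10.70, 10.50 and 10.46 in the double mutant, against 11.01, 10.88 and 11.04 in wtsX1Lats (-0.42 ± 0.10, limma adjusted p = 0.471). Neither overlapped. COX7A, a small complex IV subunit, differed by -0.03 ± 0.07 and stayed nearer to wtsX1Lats than to Canton S. The 3 subunits whose mean was higher in the double mutant were UQCR-11 (0.22), ATPsynbeta (0.29) and ATPsynC (0.14). For ATPsynbeta only wtsX1Lats replicate 3 was low: the arrays were at 13.59, 13.71 and 12.60, against 13.61, 13.59 and 13.57 in the double mutant. Its other probe set gave 0.06. Without wtsX1Lats replicate 1 the subunit median was -0.14, the smallest of the values without 1 array of these groups, and 35 subunits had the double mutant arrays below.

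Set against Canton S, the double mutant differed little. The median was 0.03 over the subunits, against 0.00 over all genes. The array medians were 0.08, 0.03 and -0.02 in the double mutant, against 0.00, -0.02 and 0.01 in Canton S, and they overlapped. Groups were apart upward in 10 of 52 subunits (19.2%) and downward in 1 (1.92%), against 13.8% and 13.7% of all genes. Differences lay above 0 in 35 of 52, against 50.6% of all genes, and at an unadjusted p under 0.05, 2 subunits were higher and 0 lower, against 7.33% and 9.05%. Limma called 1 of 74 genes higher and 0 lower, against 2.23% and 3.26% of all genes and 5.49% in both directions. That gene was UQCR-11, named for the hinge subunit of complex III, at 6.51, 6.67 and 6.39 in the double mutant, against 5.78, 6.02 and 5.52 in Canton S. It rose by 0.75 ± 0.19 (limma adjusted p = 0.0399), but the call was lost in 8 of the 12 fits that leave out 1 array (up to 0.145).

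The largest differences that did not pass were 0.64 ± 0.18 for ATPsynepsilonL (limma adjusted p = 0.0641) and -0.33 ± 0.10 for ND-51L1 (limma adjusted p = 0.0994). ATPsynepsilonL was at 7.35, 7.24 and 7.19 in the double mutant, above all 3 Canton S arrays. ND-51L1 was at 5.64, 5.56 and 5.68 in the double mutant, below all 3 Canton S arrays. Upward, the largest difference within its complex was that of ND-18 in complex I (0.23 ± 0.14), SdhB in complex II (0.17 ± 0.13) and COX7A in complex IV (0.18 ± 0.07). Downward, it was that of SdhBL in complex II (-0.10 ± 0.08), UQCR-14 in complex III (-0.11 ± 0.08) and COX5BL in complex IV (-0.15 ± 0.06), and among complex I subunits that of ND-B17.2 (-0.22 ± 0.11). None of these passed.

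The rbf120a group also lay close to Canton S in the subunits. The median was -0.00 over the 52, against 0.00 over all genes, and the array medians were 0.11, -0.09 and -0.05 in rbf120a. Replicate 1 lay above and the other 2 below the Canton S arrays. Groups were apart upward in 4 subunits (7.69%) and downward in 3 (5.77%), against 10.7% and 9.96% of all genes. At an unadjusted p under 0.05, 1 subunit was higher and 1 lower, against 6.67% and 5.85%. Limma called 2 of 74 genes higher and 1 lower, against 1.79% and 1.71% of all genes and 3.51% in both directions.

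**Figure D4:**
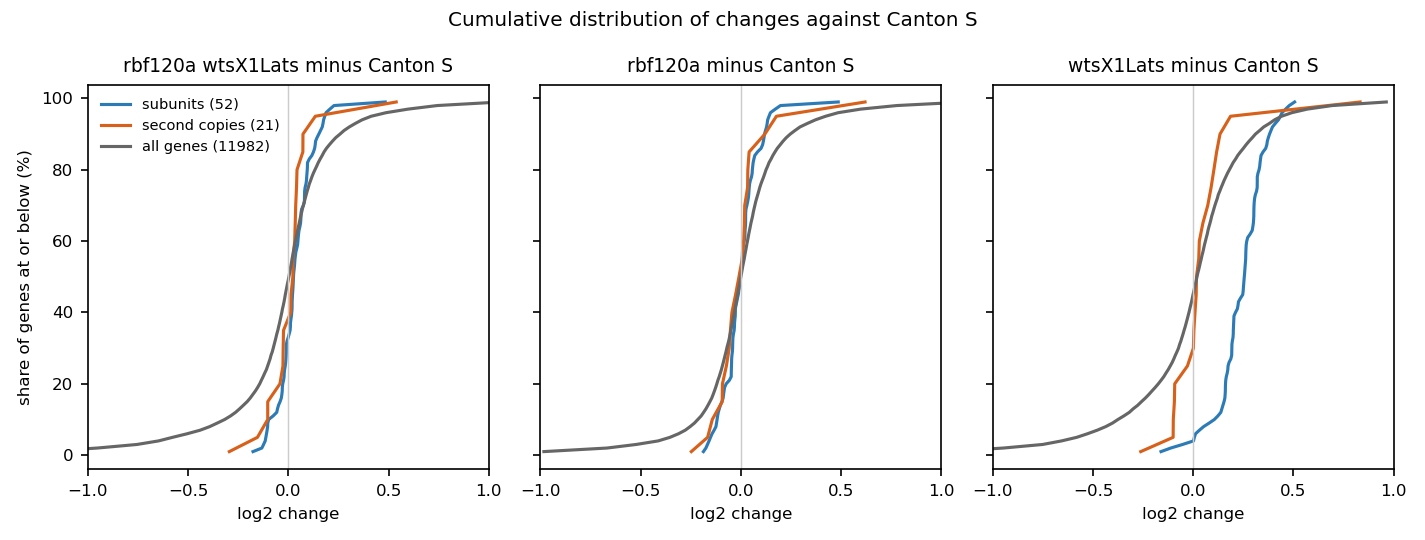
Cumulative share of genes (percent) against their log2 change relative to Canton S, in the double mutant, rbf120a and wtsX1Lats, for the 52 subunits, the 21 second copies and all 11982 genes. The subunit curve is displaced to the right in wtsX1Lats, where its median is 0.25, and lies near 0 in the double mutant (0.03) and rbf120a (-0.00).

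The gene that fell in rbf120a was Sdhaf3, a factor that helps the iron-sulphur subunit of complex II mature. It was at 7.97, 7.83 and 7.79 in rbf120a, against 8.81, 8.64 and 8.70 in Canton S. Every rbf120a array lay below every other array of the study, with a change of -0.86 ± 0.14 (limma adjusted p = 0.00589), a ratio of 0.553. The call held without each of the 12 arrays in turn (limma adjusted p up to 0.0401). In the double mutant Sdhaf3 was at 8.87, 8.67 and 8.99, and the double mutant minus rbf120a was 0.98 ± 0.14 (limma adjusted p = 0.00883; 0.0561 without double mutant replicate 3), a ratio of 1.97. The subunit it serves, SdhB, was at 11.16, 10.80 and 10.78 in rbf120a, against 10.90, 10.90 and 10.73 in Canton S, with overlapping groups (0.07 ± 0.13, limma adjusted p = 0.944).

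The genes that rose in rbf120a were UQCR-11 and ATPsynepsilonL. UQCR-11 was at 6.44, 6.71 and 6.52 in rbf120a, against 5.78, 6.02 and 5.52 in Canton S (0.78 ± 0.19, limma adjusted p = 0.0431). ATPsynepsilonL was at 7.66, 7.03 and 7.36 in rbf120a, against 6.65, 6.57 and 6.64 in Canton S (0.73 ± 0.18, limma adjusted p = 0.0477). Groups did not overlap in either, but each call was lost in 8 of the 12 fits that leave out 1 array, with limma adjusted p up to 0.16 for UQCR-11 and 0.196 for ATPsynepsilonL. Both genes, with ND-B14.7 and COX7A, had all 9 mutant arrays above all 3 Canton S arrays, which was true of 3 of 52 subunits and 1 of 21 second copies, against 3.79% of all genes; all mutant arrays lay below in 0 of the 74, against 3.41%. The 3 mutant groups are set against the same Canton S arrays.

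In rbf120a the largest upward difference within its complex was that of ND-B14.7 in complex I (0.20 ± 0.10), SdhCL in complex II (0.18 ± 0.11) and COX7AL in complex IV (0.12 ± 0.04). The largest downward was that of ND-B17.2 in complex I (-0.20 ± 0.11), UQCR-14L in complex III (-0.17 ± 0.08), COX8 in complex IV (-0.12 ± 0.08) and ATPsynCF6L in complex V (-0.27 ± 0.08). None of these passed, with limma adjusted p of at least 0.103.

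Between the double mutant and rbf120a, Sdhaf3 was the one call among the 74 genes, with 1 higher and 0 lower, against 0.342% and 0.334% of all genes and 0.676% in both directions. The subunit median was 0.04, against -0.00 over all genes, and 39 of 52 lay above 0, against 49.9% of all genes. Groups were apart upward in 3 subunits (5.77%) and downward in 0, against 11.2% and 12% of all genes. At an unadjusted p under 0.05, 1 subunit was higher and 0 lower, against 2.9% and 5.47%. All 10 complex V subunits had a higher mean in the double mutant, against 49.9% of all genes, with a median of 0.10 and a range of 0.05 to 0.20. Their array medians relative to Canton S overlapped, at 0.09, 0.06 and 0.01 in the double mutant, against 0.07, -0.11 and -0.09 in rbf120a. Of the 10, ATPsynC differed most, at 13.28, 13.36 and 13.25 in the double mutant, against 13.06, 13.14 and 13.07 in rbf120a (0.20 ± 0.08, limma adjusted p = 0.448).

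Whether the rbf120a allele acts differently with and without the wts allele was tested by the interaction, the double mutant minus wtsX1Lats less rbf120a minus Canton S. Limma called 0 of the 74 genes, against 0.492% of all genes higher and 0.401% lower, 0.893% in both directions. The subunit median was -0.22, against -0.02 over all genes, and 49 of 52 subunits lay below 0, against 54.4% of all genes. The same wtsX1Lats arrays enter here too, so a high value on them lowers the interaction, and these counts are not a separate observation. At an unadjusted p under 0.05, 1 subunit was higher and 12 lower, against 4.23% and 5.42% of all genes. The largest single values were -1.09 ± 0.26 for ATPsynepsilonL (limma adjusted p = 0.0915), 0.71 ± 0.20 for Sdhaf3 (0.194), -0.57 for UQCR-11 (0.528) and -0.53 ± 0.13 for ND-B14.7 (0.128). ATPsynepsilonL passed without wtsX1Lats replicate 2 (limma adjusted p = 0.047) and Sdhaf3 without wtsX1Lats replicate 1 (0.036).

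Replicates of a group lay close together in most members. The median SD within a group over the 74 genes was 0.06 in the double mutant, 0.11 in rbf120a, 0.11 in wtsX1Lats and 0.07 in Canton S, against 0.08, 0.10, 0.17 and 0.13 over all genes in the same order. The largest SD was that of ND-51L2 in the double mutant, at 5.98, 5.58 and 6.14, of ATPsynepsilonL in rbf120a, of ATPsynbeta in wtsX1Lats and of ND-20L in Canton S, at 5.87, 5.80 and 6.29. In each mutant group replicate 1 had the highest subunit median.

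Other genes of the pathway were taken from lists written with earlier results of these data known, and the comparison of wtsX1Lats with Canton S is described; over all genes, 2.28% were called higher, 3.33% lower and 11.4% apart upward in it. Of 24 further subunits and electron carriers 12 were measured and 0 were called, with a median of 0.15. Groups were apart upward in 3 of these 12 (25%), a smaller share than the 78.8% of the 52 subunits above. RFeSP, the Rieske iron-sulphur subunit of complex III, differed by 0.42 ± 0.12 (limma adjusted p = 0.0695), while Cyt-c1 of the same complex differed by 0.03 ± 0.11 and blw, the alpha subunit of the ATP synthase, by 0.03 ± 0.07. Of 33 genes listed as assembly factors 15 were measured, with a median of 0.25 and groups apart upward in 40%. Of the 15, 1 (6.67%, against 2.28% of all genes) rose: bsf, whose product binds mitochondrial RNA, by 0.44 ± 0.11 (limma adjusted p = 0.0377). In the double mutant 1 of the 15 fell against Canton S, where 3.26% of all genes did: Cox11, which delivers copper to complex IV (-0.75 ± 0.18, limma adjusted p = 0.0328). The genes of the mitochondrial DNA were not analysed here.

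The wider mitochondrial lists were uneven. Mitochondrial ribosomal proteins, which translate the subunits encoded in the organelle, had a median of 0.28 over 69 genes, 3 of them (4.35%, against 2.28% of all genes) called higher and 0 lower, and groups apart upward in 38 of 69 (55.1%, against 11.4%). Their array medians were 0.57, 0.19 and 0.13 in wtsX1Lats, against 0.02, -0.04 and 0.01 in Canton S, with replicate 1 the highest. Of 43 genes of mitochondrial biogenesis and dynamics 32 were measured, with a median of 0.07, and 1 rose (3.12%, close to the 2.28% of all genes), the mitochondrial DNA binding protein gene mtSSB (0.48 ± 0.11, limma adjusted p = 0.0273). TFAM, which packages mitochondrial DNA, differed by 0.51 ± 0.14 (limma adjusted p = 0.0568). The tricarboxylic acid cycle, with 15 of 30 genes measured, had a median of 0.09, and membrane carriers, with 17 of 22, a median of 0.10, both with 0 calls. Groups were apart upward in 9.38% of the biogenesis and dynamics genes, 20% of the cycle genes and 0% of the carriers, against 11.4% of all genes.

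Glycolysis, the cytosolic route to ATP, had a median of 0.30 over 12 of 19 genes, with 4 (33.3%, against 2.28% of all genes) called higher and 0 lower in wtsX1Lats. These were Pgi (0.55 ± 0.09, limma adjusted p = 0.00473), Gapdh1 (0.40 ± 0.07, 0.00745), Tpi (0.36 ± 0.08, 0.026) and Pfk (0.48 ± 0.11, 0.0286). Groups were apart upward in 7 of the 12 (58.3%), against 11.4% of all genes. In the double mutant the median against Canton S was 0.15 and 0 of the 12 were called. The medians were 0.04 for the mitochondrial ribosomal proteins and 0.03 for the assembly factors in the double mutant.

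Some lists of cell type markers differed between the groups and others did not, and their part in the subunit differences was not tested. Of 13 muscle markers 9 were measured, 0 were called in wtsX1Lats, and their summed linear signal ran from 16126 to 19886 in the double mutant, 24792 to 26709 in rbf120a, 12861 to 40667 in wtsX1Lats and 18207 to 33811 in Canton S. Their array medians were -0.73, -0.52 and 0.93 in wtsX1Lats, against -0.20, 0.59 and -0.36 in Canton S, and overlapped. The eye disc markers had array medians of -0.91, -0.45 and -0.26 in wtsX1Lats, with 4 of 13 called lower and 1 higher, against 3.33% and 2.28% of all genes. In the double mutant their array medians were -0.57, -0.44 and -0.40, with 4 called lower and 2 higher, against 3.26% and 2.23%. In rbf120a they were -0.33, -0.20 and -0.10, with 0 of 13 called. Markers of glia and neuroblasts had 3 of 8 called lower in wtsX1Lats, and blood cell markers 3 of 10, against the same 3.33%. In the same order, 0 of 8 and 5 of 10 were called lower in rbf120a, against 1.71% of all genes. In the double mutant 4 of 8 and 4 of 10 were called lower, against 3.26%. Of the testis markers, 12 of 13 were measured and 0 were called in any comparison, with a summed linear signal of 599 to 719 in the double mutant, 609 to 743 in rbf120a, 552 to 629 in wtsX1Lats and 460 to 704 in Canton S. Of 3 fat body markers, 4 tracheal markers and 1 male marker, 0 were called in wtsX1Lats. Of 7 salivary gland markers 1 was called lower in wtsX1Lats, while 6 had a higher mean there, with a median of 0.42. Their array medians were -0.42, 1.67 and -0.42 in rbf120a and -0.19, 0.22 and 1.16 in wtsX1Lats, against -0.56, -0.49 and 0.87 in Canton S, so 1 array of each of these groups stood high.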

How the data were processed

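Larval eye discs of 4 genotypes were profiled on 12 Affymetrix arrays; per the labels' protocols, 6 ug of total RNA was labelled for each. The authors deposited log2 signals for 18952 probe sets (range 3.55 to 14.53); the values show the log2 scale, and the normalization method is not stated in the sources used here. After sorting, arrays differed from their mean distribution by at most 0.17. Of the probe sets, 183 were controls, 13647 had 1 gene, 402 several and 4720 none in the platform annotation. Where a gene had several probe sets, the brightest on average was kept, giving 11982 genes, and all 74 members matched a current gene table.

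One limma 3.58.1 model (R 4.3.3; lmFit, eBayes with a trend) of 4 group means over 12 arrays, with 8 residual degrees of freedom, gave 6 contrasts. P-values were Benjamini-Hochberg adjusted over 11982 genes and called under 0.05. The model was tested on simulated data. Errors are SEs of the fit or SDs over 3 arrays. Not overlapping, or apart, means that all 3 arrays of a group lie beyond all of the other. Named genes are the called members, the largest rise and fall per complex and mutant group, SdhC, ox and COX4, second copies with partners, the largest SD per group and members with several probe sets; ND-75, ND-51, ND-MNLL, ND-B8, ND-B12, SdhD, COX5A, ATPsynC and ATPsynO, and blw and Cyt-c1 among the other genes, were added after their values were seen. The members, lists and rules were chosen with earlier results of these data known. Alternatives were other variance priors, quantile normalization, median centring, a filter on dim genes, array weights, the mean of all probe sets, fits of the compared groups alone, a replicate block and fits without arrays. Figures were drawn with matplotlib 3.10.9.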

Additional observations from a re-analysis of the deposited data

How the results depend on the processing

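All counts here are of the 74 genes, and the median differences kept their direction in wtsX1Lats against Canton S and in the double mutant against wtsX1Lats under every alternative run. Counts of calls moved more. Quantile normalization gave 1 call for rbf120a and 2 for the double mutant, each against Canton S. Centring arrays on the median gave 2 for the double mutant, and it put the median of all genes at 0.10 in wtsX1Lats and 0.08 in the double mutant, against 0.02 and 0.00 as deposited, with medians over the 74 genes of 0.28 and 0.10. Leaving out genes below the 25th percentile of signal, which removed 12 of the 74 including 11 second copies, gave 12 calls in wtsX1Lats, 6 of them shared with the 7 reported. Array weights gave 12 for rbf120a, 10 for the double mutant, 2 for the double mutant against rbf120a and 3 for the interaction. Among the 7 calls reported in wtsX1Lats, array weights lost SdhC and UQCR-6.4, and a robust variance prior lost COX4. Median centring lost COX4 and COX7AL, and quantile normalization and a variance prior without a trend each lost COX7AL. A fit of the compared groups alone gave 0 for wtsX1Lats and 2 for the double mutant. Without wtsX1Lats replicates 1 and 3 together the counts were 0 for wtsX1Lats and 3 for the double mutant. The cause of these shifts was not tested.

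Leaving out 1 array at a time gave 1 to 3 calls for rbf120a, 1 to 17 for wtsX1Lats, and 0 to 2 for the double mutant, each against Canton S. The double mutant gave 0 to 1 against rbf120a and 0 to 0 against wtsX1Lats, and the interaction 0 to 1. The median over the 74 genes ran from -0.04 to 0.01, 0.17 to 0.22, 0.00 to 0.04, 0.01 to 0.07, -0.20 to -0.11 and -0.19 to -0.12 in the same order. Subunits with groups apart numbered 41 to 44 for wtsX1Lats against Canton S and 33 to 42 for the double mutant against wtsX1Lats; the 46 and 45 without wtsX1Lats replicates 1 and 3 were computed after seeing the data.

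Replicate numbers are shared by the groups, but of 18 same-number pairs of arrays 6 had a correlation of deviations over 0.1 (range -0.30 to 0.31). Arrays with different numbers also correlated: rbf120a replicate 2 with double mutant replicate 1 at 0.46 and with double mutant replicate 3 at -0.34. The numbers were therefore not taken to pair arrays, and the main model has no term for such correlations. With the replicate block the calls were 2 for rbf120a, 7 for wtsX1Lats, and 1 for the double mutant, each against Canton S. The double mutant gave 1 against rbf120a and 0 against wtsX1Lats, and the interaction 0. These are not all the calls reported: the block lost ox in wtsX1Lats (limma adjusted p = 0.0501) and UQCR-11 in rbf120a (0.0724) and in the double mutant (0.0626), where the 1 call is ATPsynepsilonL. With 3 arrays a group, the number of arrays limits the precision.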
